A study of Rattus norvegicus with 12 samples.

Results

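Growth hormone (GH) added to estradiol (E2) treatment was studied in the liver of hypothyroid-orchidectomized (TXOX) rats, by setting the 4 arrays of TXOXE2GH animals against the 4 arrays of TXOXE2 animals, which are 8 of the 12 arrays of the series. Probes with a value on 3 or more arrays of each group entered the comparison, 17937 of the 26962 distinct probes printed. All animals were male Sprague-Dawley rats, about 3 months old, made hypothyroid with methimazole in the drinking water (0.05%, for 5 weeks up to postnatal day 94) and castrated 2 weeks after it began. TXOXE2 rats received E2 benzoate subcutaneously, 50 µg/kg on 5 days a week over 27 days. Treatment is stated to have begun 4 days after castration. The stated intervals do not all fit within the 5 weeks of methimazole, so the durations are given as stated. TXOXE2GH rats received the same E2 schedule and, in its last 7 days, recombinant GH at 0.3 mg/kg per day in 2 injections, and livers were taken 12 hours after the last GH and 24 hours after the last E2 injection. Each array held liver RNA of an individual treated rat in the Cy5 channel and of a vehicle-treated TXOX rat, hypothyroid and castrated in the same way, in the Cy3 channel. This reading of the dyes rests on the channel characteristics in the labels, whose source fields give the treated group for both channels. Since the dyes were never swapped, a constant effect of the dye on a probe stays in each log2(Cy5/Cy3) ratio but cancels in the difference between the groups. A further 4 arrays of TXOXGH rats, given GH without E2, supplied side-by-side values and a share of the error estimate.

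In the liver, GH binds its receptor on hepatocytes and signals through the kinase JAK2 and the transcription factor STAT5, which drives IGF-I and the feedback inhibitors SOCS2 and CIS. In the rat the pattern of GH secretion, pulsatile in males and more continuous in females, sets much of the sex-typical expression of hepatic cytochromes P450. Estrogens act on hepatocytes through estrogen receptor alpha and are known to modify GH signaling there. The hypothyroid-castrated rat has little GH and little sex steroid of its own, so that both hormones can be given back separately or together.

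The files do not pair the array's probes with genes, so the results are those of probes. Lists of GH target genes, of sex-specific liver genes and of liver cell markers could not be measured, and the label of the tissue could not be set against hepatocyte markers. In whole liver, fewer cells of a type and less RNA per cell cannot be told apart.

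Probes occupied 27094 spots of each array. Unflagged among them were 19343 to 20882 spots on the TXOXE2 arrays and 19130 to 20930 on the TXOXE2GH arrays. The median ratio of Cy5 foreground to local background was 1.4 to 1.91 and 1.54 to 1.81, respectively, so that many spots were dim. Across the 14797 probes measured on all 12 arrays, log2 ratios of arrays of the same treatment correlated by 0.459 to 0.589 within TXOXE2 and by 0.313 to 0.5 within TXOXE2GH. TXOXE2 arrays correlated with TXOXE2GH arrays by 0.122 to 0.445. TXOXGH arrays correlated with TXOXE2GH arrays by 0.281 to 0.623, the upper end above that of any pair of the same treatment, and with TXOXE2 arrays by 0.158 to 0.472. These are correlations across probes, given as a description. With 4 arrays a group, their number sets the limit to the precision of these values.

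GH added to E2 changed 144 of the 17937 probes (0.803%) at an adjusted p under 0.05 in limma's moderated test with Benjamini-Hochberg adjustment. All 144 also passed the 0.58 threshold on the log2 scale that the study used. Higher with GH were 83 probes (0.463%) and lower were 61 (0.34%). The median difference was 1.02 (median SE 0.193) among the higher probes, a 2.03-fold rise, and −0.93 (median SE 0.19) among the lower ones, a 1.91-fold fall, beside −0.02 over all probes tested. Changes of 2-fold or more were seen in 43 higher and 25 lower probes, and of 4-fold or more in 14 and 2. The values of the 4 TXOXE2GH arrays lay entirely above those of the TXOXE2 arrays for 81 of the 83 higher probes, and entirely below them for 58 of the 61 lower ones. Over all probes tested such a separation was found for 771 (4.3%) upward and 719 (4.01%) downward, and an unadjusted p under 0.05 for 2746 (15.3%). The count of 144 moved by more than 1.5 times when certain arrays were left out. It was 69, 67 and 51 without TXOXE2 replicates 1, 2 and 3, 42 and 62 without TXOXE2GH replicates 1 and 2, and 231 without TXOXE2GH replicate 3. Called in all 12 fits that each left out 1 array were 34 of the 144, 26 higher and 8 lower.

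Measured differences reached 5.80 among the rises and −2.70 among the falls. The largest fall was not above local background on any TXOXE2GH array, so that its size is only a limit, and the ends of the 2 ranges cannot be ranked. A measured difference of 16-fold or more was found for 6 higher probes. Cy5 was above local background on 3 or more TXOXE2 arrays for 3 of them, on 1 array for 2 and on none for 1, and 4 of the 6 had saturated pixels on some arrays, so that their folds are not exact. In these 6 the mean log2 ratio to TXOX was −1.55 to −0.73 after E2 and 3.12 to 4.24 after E2 plus GH, with no overlap between the arrays. All 6 were called in each of the 12 fits with 1 array left out. On the TXOXGH arrays their mean ratios were 3.92 to 5.27. The rises from 4-fold to 16-fold were more varied, and among them was a probe of printed block 15 with a mean ratio of −4.45 after E2, −1.76 after E2 plus GH and −0.07 after GH. Its Cy5 signal was above local background on 1 of the 4 TXOXE2 arrays, so that its level after E2 is a limit rather than a value.

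**Figure D1:**
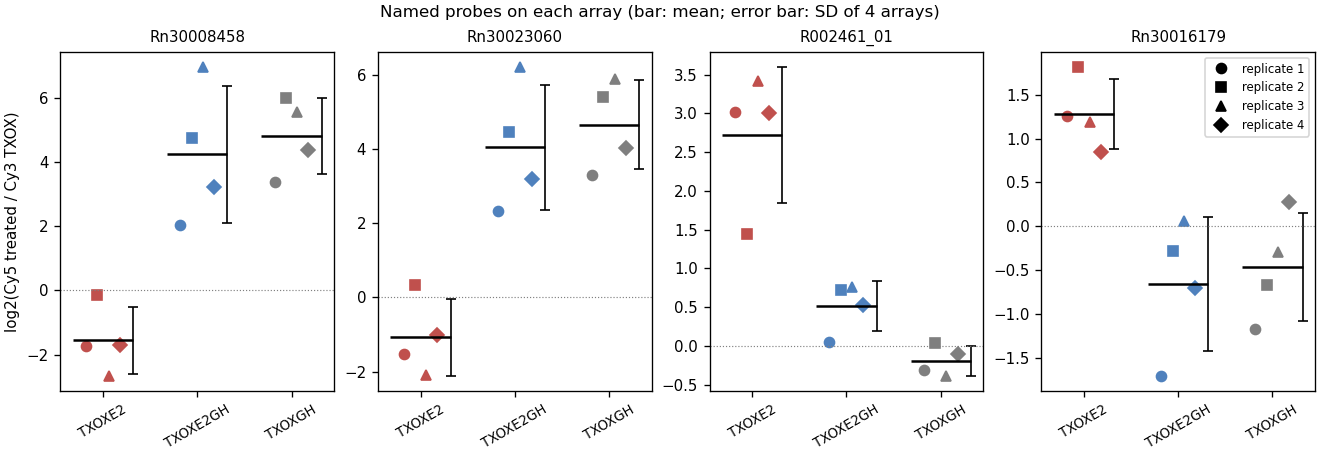
Log2 ratios of Cy5 (treated liver) to Cy3 (TXOX liver) of the 4 named probes on each array, by treatment, with the mean of the 4 arrays as a bar, the SD as an error bar and a symbol for each replicate number. In each panel the TXOXE2 and TXOXE2GH arrays do not overlap; Rn30008458 rose from a mean of −1.55 to 4.24, and R002461_01 fell from 2.72 to 0.52.

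Probe Rn30008458 had the largest rise among the 49 higher probes that were separated between the groups and above local background in Cy5 on at least 2 arrays of each. Its log2 ratio to TXOX was −1.72, −0.13, −2.65 and −1.72 on TXOXE2 arrays 1 to 4, and 2.03, 4.77, 6.96 and 3.22 on TXOXE2GH arrays 1 to 4. The ratios were thus above TXOX on all TXOXE2GH arrays and below it on all TXOXE2 arrays, with a wide spread in both groups. Against TXOX the limma-adjusted p was 0.0658 after E2 and 0.000327 after E2 plus GH. A dye effect stays in such tests against TXOX. The difference was 5.80 (SE 0.811, limma-adjusted p = 0.00269). The Cy5 foreground was 1268, 171, 336 and 310 after E2, and 65535, 28805, 42710 and 15026 after E2 plus GH, the first of these at the ceiling of the scanner. Some pixels were saturated on each TXOXE2GH array, from 1% to 73% of them. With TXOXE2GH array 1 at the ceiling, its ratio of 2.03 is a lower limit, and the Cy5 channel alone gave a rise of at least 69.3-fold. The TXOX liver on the same spots varied widely as well, from 222 to 4853 in Cy3 on the TXOXE2 arrays and from 431 to 12922 on the TXOXE2GH arrays, so that the highest ratio, on TXOXE2GH array 3, lay over the dimmest TXOX sample of its group. On the TXOXGH arrays the ratio was 3.37, 6.0, 5.56 and 4.38, with saturated pixels on all 4. The median Cy5 foreground was at the ceiling of 65535 on TXOXGH arrays 1 and 3, so that their ratios are lower limits.

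Rn30023060 was the other named rise. Its log2 ratio was −1.51, 0.33, −2.09 and −1.0 on the TXOXE2 arrays, and 2.32, 4.45, 6.19 and 3.20 on the TXOXE2GH arrays. The groups did not overlap, and TXOXE2 array 2 was the only one of its group above TXOX. Against TXOX the limma-adjusted p was 0.142 after E2 and 0.000142 after E2 plus GH. The difference was 5.11 (SE 0.709, limma-adjusted p = 0.00269). Cy5 foreground was 2400, 288, 606 and 592 without and 65535, 27805, 24853 and 23220 with GH. Without GH the Cy5 signal was above local background on all 4 arrays, at 288 to 2400. With GH it was higher on all 4, at 23220 or more. Cy3 foreground, from TXOX liver, was 8283, 239, 3151 and 1055 on the first and 10582, 1249, 430 and 2396 on the second set of arrays, so that the reference itself differed between arrays while its ranges in both groups overlapped. Some pixels were saturated on TXOXE2GH array 1 (80% of them), so that its ratio of 2.32 is a lower limit. Without saturated spots the difference was 5.67. The TXOXGH arrays gave 3.30, 5.4, 5.89 and 4.02, with 31% to 82% of the pixels saturated. On TXOXGH arrays 1 and 3 the median Cy5 foreground was at the ceiling of 65535, so that their ratios are lower limits. On TXOXGH arrays 2 and 4 it was 65026 and 58774, below that ceiling.

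R002461_01 had the larger fall of the 2 named lower probes, out of 43 that met the same conditions. It stood at 3.01, 1.44, 3.42 and 3.00 on the TXOXE2 arrays, and at 0.05, 0.72, 0.76 and 0.53 on the TXOXE2GH arrays. All E2 arrays were well above TXOX, and with GH the ratio was lower on all 4 arrays, from 0.05 to 0.76 above TXOX. Against TXOX the limma-adjusted p was 1.4e-06 after E2 and 0.148 after E2 plus GH. The difference was −2.20 (SE 0.309, limma-adjusted p = 0.00269), a 4.6-fold fall. Cy5 foreground was 7408, 674, 4169 and 6250 with E2 alone, and 642, 911, 897 and 620 when GH was added. TXOXE2 array 2 was thus low in Cy5, within the range of the TXOXE2GH arrays, and its Cy3 foreground was 288. That array was the dimmest of the 8 in both channels, with median foreground to background ratios of 1.4 and 1.59. GH without E2 gave ratios of −0.31, 0.04, −0.38 and −0.10.

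Rn30016179 was measured at 1.25, 1.81, 1.19 and 0.85 on the TXOXE2 arrays and at −1.70, −0.28, 0.06 and −0.71 on the TXOXE2GH arrays. E2 liver was above TXOX on every array, and with GH 3 of the 4 arrays were below it. Against TXOX the limma-adjusted p was 0.00265 after E2 and 0.0959 after E2 plus GH. The difference was −1.93 (SE 0.338, limma-adjusted p = 0.0137), a 3.81-fold fall, and without TXOXE2 replicate 2 it was −1.75 with an adjusted p of 0.0534. Cy5 was above local background on 2 of the 4 TXOXE2GH arrays. GH without E2 gave ratios of −1.17, −0.66, −0.29 and 0.28.

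For probes above local background on every measured array of one group and on none of the other, only a limit of the change can be given. There were 4 such higher probes, at least 2.15-fold to at least 10.1-fold higher in Cy5 with GH (measured differences of 1.32 to 4.46 in the log2 ratio). There were 4 such lower probes, at least 1.57-fold to at least 3.14-fold lower (measured differences of 1.10 to 2.70 in size). The highest limma-adjusted p among these 8 was 0.0497.

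**Figure D2:**
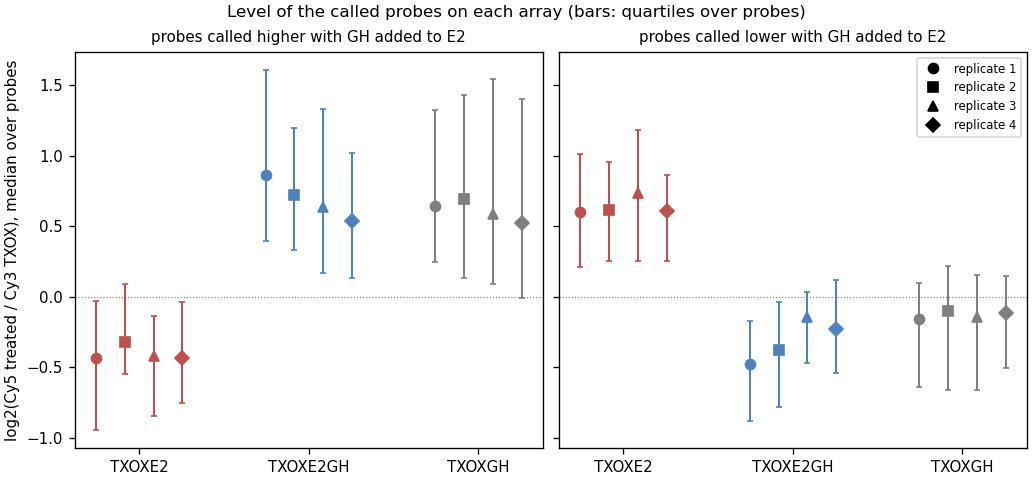
Median log2 ratio of treated to TXOX liver over the 83 probes called higher (left) and the 61 called lower (right) on each of the 12 arrays, with the quartiles over probes as bars. The higher probes lay at −0.43 to −0.32 on the TXOXE2 arrays and at 0.54 to 0.86 on the TXOXE2GH arrays.

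Relative to TXOX liver, most higher probes crossed from below to above. Their median log2 ratio was −0.40 (quartiles −0.71 and −0.11) after E2 and 0.67 (0.28 and 1.14) after E2 plus GH. The mean ratio was below TXOX after E2 for 68 of the 83, and above TXOX after E2 plus GH for 77. Over all 17937 probes tested these counts were 8819 and 8768. By array, the median over the 83 higher probes was −0.43, −0.32, −0.42 and −0.43 for TXOXE2 replicates 1 to 4, and 0.86, 0.72, 0.64 and 0.54 for TXOXE2GH replicates 1 to 4. On the TXOXGH arrays, which took no part in the difference, the median was 0.64, 0.69, 0.58 and 0.53. The probes were chosen by the difference between TXOXE2 and TXOXE2GH arrays. The TXOXGH arrays had a share in the error estimate of that choice, so all these levels are a description.

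The lower probes were chosen by the same difference, so their levels are a description as well. They were mostly above TXOX after E2. Their median log2 ratio was 0.66 (quartiles 0.33 and 0.95) after E2 and −0.22 (−0.64 and −0.08) after E2 plus GH. The mean ratio was above TXOX after E2 for 54 of the 61, and below TXOX after E2 plus GH for 49. Over all 17937 probes tested these counts were 9118 and 9169. By array, the median over the 61 lower probes was 0.60, 0.61, 0.74 and 0.61 after E2, and −0.48, −0.38, −0.15 and −0.23 after E2 plus GH. On the TXOXGH arrays it was −0.16, −0.10, −0.15 and −0.12.

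Set against the 0.58 threshold, the changes were of 2 main kinds in each direction. Of the 83 higher probes, 30 were below TXOX by at least 0.58 after E2, and with GH 19 of these 30 lay within 0.58 of TXOX. Another 48 were within 0.58 of TXOX after E2, and with GH 36 of them were above it by at least 0.58. The remaining 5 were already above TXOX by that much after E2, with a median of 0.93, and stood at a median of 2.51 with GH. Of the 61 lower probes, 38 were above TXOX by at least 0.58 after E2, and 34 of them lay within 0.58 of it with GH. The other 23 were within 0.58 of TXOX after E2, and 13 of these were below it by at least 0.58 with GH. For the 30 and the 38 probes beyond that threshold after E2, the median ratio on the TXOXGH arrays was 0.22 and 0.03. The E2 arrays enter both this grouping and the call, and a dye effect would move the levels but not the differences.

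**Figure D3:**
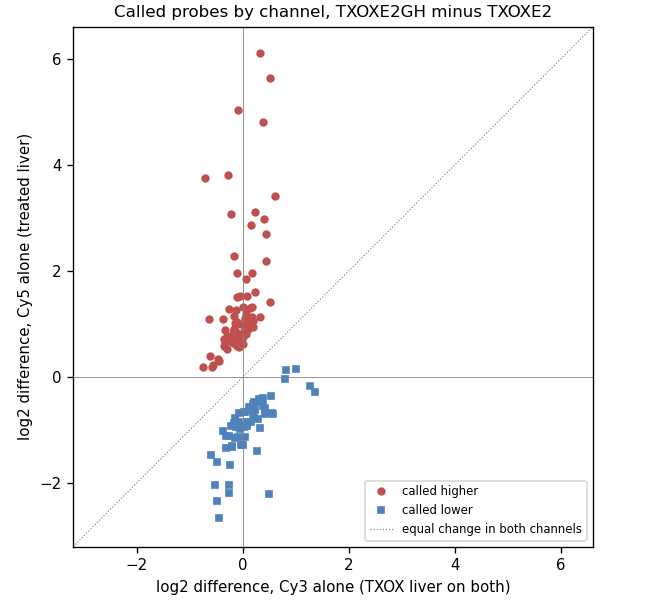
Difference between TXOXE2GH and TXOXE2 arrays in Cy5 alone (treated liver, vertical axis) and in Cy3 alone (TXOX liver on both, horizontal axis) for the 144 called probes, on the log2 scale. Most points lie close to the vertical zero line; the Cy5 difference was larger in size than the Cy3 difference for 132 of the 144.

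The channels were also looked at separately, since the Cy3 channel held TXOX liver on both sets of arrays. The Cy5 difference had the direction of the ratio for all 83 higher probes and for 59 of the 61 lower probes. The median size of the difference over the 144 was 0.93 in Cy5 (median SE 0.269) and 0.19 in Cy3 (median SE 0.255). For 132 of the 144 the Cy5 difference was the larger in size, and for the other 12 the Cy3 difference was the larger. Over all 17937 probes tested the Cy5 difference was the larger for 9966, and had the direction of the ratio for 12055. The 144 were called on the ratio of these same channels, which favours such agreement. Across all probes, limma called 57 (0.318%) in Cy5 alone, 27 higher and 30 lower, of which 32 were among the 144. In Cy3 alone it called 0, while 1807 (10.1%) had an unadjusted p under 0.05, against 3049 (17%) in Cy5.

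**Figure D4:**
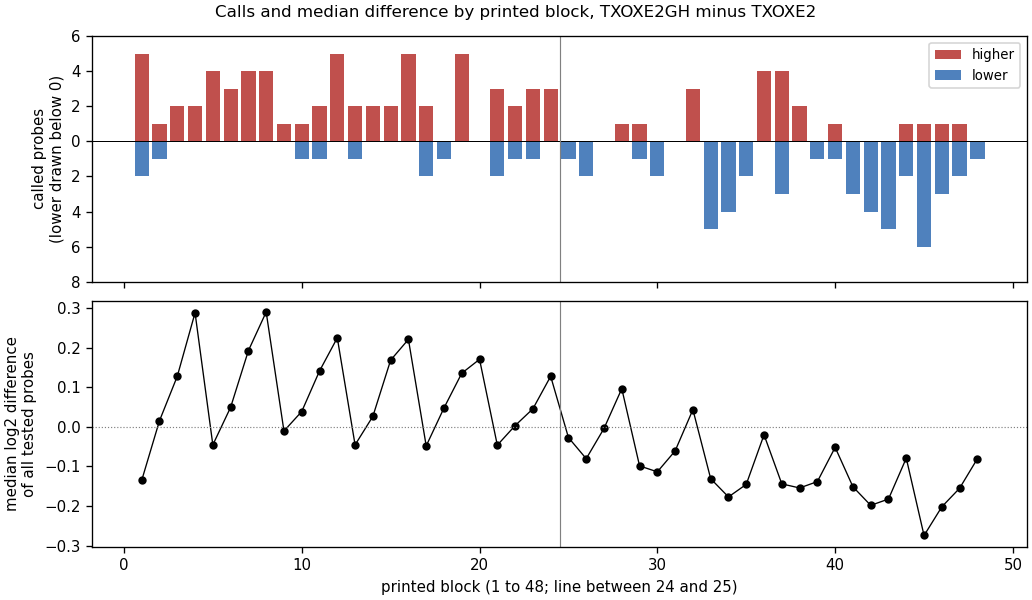
Number of probes called higher (upward bars) and lower (downward bars) in each of the 48 printed blocks, and the median log2 difference of all tested probes of the block (lower panel). Blocks 1 to 24 hold 63 of the 83 higher probes, and blocks 25 to 48 hold 48 of the 61 lower ones.

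Calls were not spread evenly over the slide. Each array was printed in 48 blocks, and 63 of the higher probes lay in blocks 1 to 24 and 20 in blocks 25 to 48. Of the lower probes, 13 lay in the first and 48 in the second of these parts. The median difference of all probes tested was 0.08 in blocks 1 to 24 (8438 probes) and −0.10 in blocks 25 to 48 (9487 probes), and block medians ran from −0.27 to 0.29. Block membership accounted for 15.6% of the variance in the differences, and for 0.266% when the loess was fitted within each block. With that loess 87 probes (0.485%) were called, 58 higher and 29 lower, and 72 of them were among the 144, 51 higher and 21 lower. The higher calls then numbered 36 and 22 in the 2 parts of the slide, and the lower calls 16 and 13. All 4 named probes were called with either normalization. The part of the position on the slide in the other 72 calls was not tested.

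**Figure D5:**
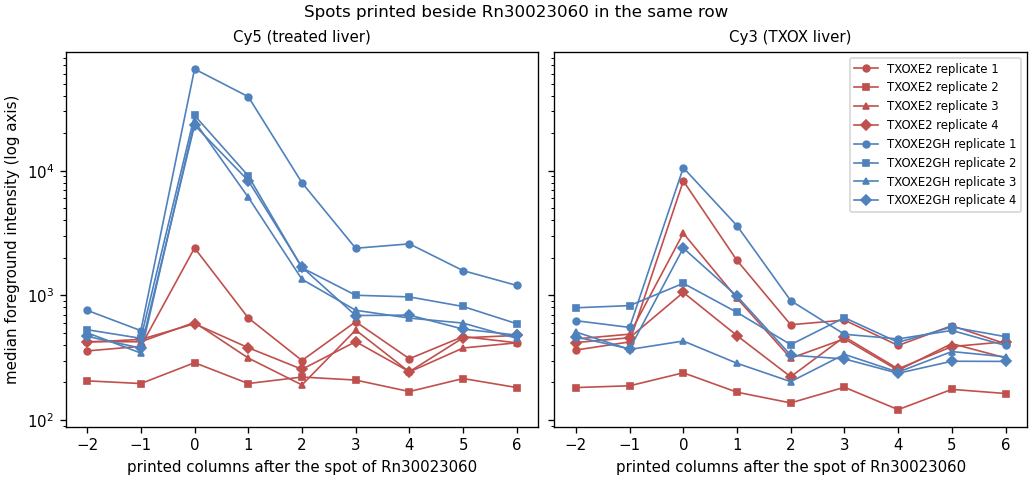
Median foreground of the spots printed from 2 columns before to 6 columns after Rn30023060 in its row, in Cy5 (left) and Cy3 (right), on a log axis, for the 4 TXOXE2 and the 4 TXOXE2GH arrays. In Cy5 on TXOXE2GH array 1 the signal went from 65535 at Rn30023060 to 39319, 8018 and 2388 in the next 3 columns, and was 521 in the column before it.

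Some of the largest rises lay side by side in a printed row. The probes printed in the 2 columns after Rn30023060 differed by 4.43 and 2.80 with GH (limma-adjusted p = 0.00211 and 0.00936), and those in the next 3 columns by 1.23, 1.74 and 0.88 (limma-adjusted p = 0.0584, 0.00775 and 0.0919). The probe in the column before it differed by −0.33 (limma-adjusted p = 0.316). The Cy5 foreground on TXOXE2GH arrays 1 to 4 was 39319, 9105, 6129 and 8322 at the first spot after Rn30023060, and 521, 452, 344 and 377 at the spot before it. The signal thus declined over the next 3 columns on each of these arrays, while the spot before Rn30023060 was dim on all 4. Beside Rn30008458, whose signal also reached 65535, the spot in the next column had too few unflagged values to be tested. Its Cy5 foreground was 537, 196, 202 and 158 on TXOXE2GH arrays 1 to 4, 98 to 168 on the TXOXE2 arrays and 280 to 523 on the TXOXGH arrays. In the 2 columns after that spot the differences were −0.58 (limma-adjusted p = 0.402) and 0.13 (limma-adjusted p = 0.869).

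Among the 144 probes, 13 pairs of the same direction stood in adjacent columns of a row, and in 12 of the 13 the probe in the earlier column had the larger change. No called probe had a called neighbour of its direction in the row above or below. For the 14 rises of 4-fold or more, the neighbour in the next column differed by a median of 0.72 (11 tested), that in the column before by 0.13 (12 tested), and those in the next and previous rows by 0.13 and 0.10 (10 tested each). Without the called probes that stood within 4 columns after a larger called change of the same direction, 125 remained, 70 higher and 55 lower. Of the 14 rises of 4-fold or more, 3 were of this kind, among them 1 of the 6 of 16-fold or more. The part of a neighbouring spot in these values was not tested. Called in each fit with 1 array left out and also with loess within blocks were 33 probes, 25 higher and 8 lower, and 28 of them, 20 higher and 8 lower, did not stand after a larger called change.

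The effect of GH with E2 was then set against that without E2, by testing whether the E2 plus GH ratio departed from the E2 ratio and the GH ratio added together. Of 17858 probes, 157 (0.879%) departed at a limma-adjusted p under 0.05, 52 upward (0.291%) and 105 downward (0.588%). A dye effect stays in this contrast with its sign turned. The count was 8, all downward, with loess within each printed block. TXOXGH and TXOXE2GH arrays of the same number deviated together, and with that number as a block on those 8 arrays 978 were called, 404 upward and 574 downward, so that the count is not settled by these data. It was 45, 78, 26 and 66 without TXOXE2 replicates 1 to 4, 91, 53, 34 and 22 without TXOXGH replicates 1 to 4, and 32 and 50 without TXOXE2GH replicates 1 and 2.

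Of the named probes, R002461_01 departed from the sum in the main fit, by −2.01 (SE 0.379, limma-adjusted p = 0.0287). Its difference of −2.20 with GH under E2 stood beside a mean ratio of −0.19 ± 0.193 (SD, n = 4) on the TXOXGH arrays. The probe was named for that difference, which enters the departure. Whether its departure was called in the settings that moved the count was not examined. Rn30016179 departed by −1.47 (SE 0.414, limma-adjusted p = 0.0855), and its mean ratio on the TXOXGH arrays was −0.46 ± 0.61 (SD, n = 4). For Rn30008458 and Rn30023060 the departure was 0.97 (SE 0.994) and 0.46 (SE 0.869), with limma-adjusted p of 0.617 and 0.803, and saturated pixels limit both values. Over the 6 rises of 16-fold or more the departure ran from −0.15 to 0.97 and was not called for any of them, which does not show that GH acted alike with and without E2. For the probe of block 15 the departure was 2.77 (limma-adjusted p = 0.0163), a value that rests on its level after E2, of which only a limit is known.

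Another 12 probes were each printed 12 times, which shows how the difference between the groups varied from spot to spot of a probe. None of the 12 was called, and none had an unadjusted p under 0.05. Their differences lay between −0.30 and 0.17, and the SD of the difference over the spots of a probe was 0.131 to 0.374, with a median of 0.194. All 12 spots were measured for 9 of the 12 probes. For Rn30000745, R002354_01 and Rn30014654, 10, 6 and 4 spots were measured.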

How the data were processed

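The authors labelled 5 µg of liver RNA per animal, scanned the slides and deposited GenePix intensity values (foreground and local background medians per spot), with the percent of pixels above background and the percent saturated, and spot flags. They also deposited log2 ratios after LOWESS, and tested them with SAM and a fold threshold.

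Intensities were corrected with normexp (offset 50) and normalized by a global loess within arrays in limma 3.58.1 (R 4.3.3). Flagged and 554 control spots of 27648 were left out and repeated spots averaged. The linear model held 1 mean for each treatment and was fitted over 12 arrays (9 residual degrees of freedom), with a variance trend on intensity and Benjamini-Hochberg adjustment. The methods were tested on simulated data with independent noise on each array, which held no effects of printed blocks, neighbouring spots or paired arrays. Replicates are individual animals per the labels. Deviations from the group means correlated by 0.306, 0.388, 0.453 and 0.329 between TXOXGH and TXOXE2GH arrays of the same number. They were taken as pairs only in alternative fits, on the basis of the data alone. The main fits of the difference and of the departure held no pairing. Named probes were the 2 largest rises and 2 largest falls called, separated between groups and above background (at least 50% of pixels above background plus 2 SD) on 2 or more arrays of each group. Members, lists and tests were chosen with earlier results of these data known. The lists of genes, Igf1 and others, were not analysed here, since probes have no gene names. The alternatives on neighbouring spots, the block on TXOXGH and TXOXE2GH arrays, single channels, the prior variance and the trend on unflagged spots were chosen after seeing the data.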

Additional observations from a re-analysis of the deposited data

Results flagged for a closer look

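In 2 places a single array stood apart from the other 3 of its group by Dixon's criterion, which chance alone meets in about 1 of 20 groups. The median log2 ratio of the probes called higher was −0.32 on TXOXE2 array 2, against −0.43 to −0.42 on the other TXOXE2 arrays. The median of the probes called lower was 0.74 on TXOXE2 array 3, against 0.60 to 0.61 on the others. Both are medians over probes that were called with these same arrays, so they are a description. The effect of GH with and without E2 was compared by the departure test, which called 157 probes. That count was 8 with loess within printed blocks and 978 with TXOXGH and TXOXE2GH arrays paired. Among the named probes R002461_01 was called in the main fit, with a departure of −2.01 (limma-adjusted p = 0.0287). Its departure in the other settings was not examined. A dye effect stays in all these departures with its sign turned, and its part in them was not tested.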

How the results depend on the processing

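The count of 144 changed probes became 87 with loess within each printed block, 71 with scaling between arrays, 76 with SAM (65 higher and 11 lower), 82 without a variance trend, 70 on the 8 arrays compared and 57 in Cy5 alone, each the same at the fold threshold. With 1 array left out it ran from 42 to 231. TXOXE2 and TXOXE2GH arrays of the same number deviated by correlations of 0.11, −0.02, 0.10 and −0.15 and were not taken as pairs. TXOXE2 replicates 1 to 4 deviated most like TXOXE2GH replicates 1, 3, 4 and 2, a hint from the data and not the design. With replicate numbers as a block, fixed or random, 239 or 224 were called (237 or 218 at the fold threshold), and 401 or 322 departures. With TXOXGH and TXOXE2GH arrays alone paired by number, the replicate block gave 135 calls, 130 of them among the 144, and 978 departures. The other alternatives gave 120 to 173. The study's table of ratios gave 120, 59 higher and 61 lower, of 11581 probes. The 157 departures became 60 with background subtracted, 8 with loess within blocks, 97 with median centring, 31 with scaling between arrays, 102 with 2 arrays required, 83 without a variance trend, and 22 to 205 with 1 array left out. The 4 named probes kept their direction wherever they had a value, and their calls except for Rn30016179 without TXOXE2 replicate 2 (−1.75, limma-adjusted p = 0.0534). Rn30008458 had no value without saturated spots or in the study's table. The causes were not tested. Dim spots and the number of arrays limit the detection of small changes.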
